A study of Homo sapiens with 21 samples.

Results

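C3A cells exposed to the herbicide 2,4-D were compared with C3A cells exposed to the herbicide glyphosate, gene by gene, in 6 of the 21 RNA-seq libraries of the study. C3A is a clone of the human hepatoma line HepG2, used as wild type, and every library came from this line. The groups were 2,4-D at 2.5 µM (0.56 µg/mL) and glyphosate at 5.6 µM (0.95 µg/mL), 3 libraries each, both for 48 h. Each concentration was set 1000-fold below the IC50 of its own compound, so the molar doses differed, and compound and dose cannot be told apart. A second pair of groups, AMPA+2,4-D (the same 2.5 µM of 2,4-D with 34 µM AMPA, 3.7 µg/mL) and AMPA alone, also for 48 h and 3 libraries each, shared no library with the first pair and is set beside it. Glyphosate+2,4-D (3 libraries) and unexposed cells (6 libraries) were used for levels only. Genes were taken where the 2,4-D and the glyphosate tables both listed them and FPKM reached 1 in at least 3 of the 6 libraries. FPKM is the number of reads per kilobase of gene, scaled to the depth of the library. This kept 12114 genes, 10098 of them protein-coding, of 24419 genes listed in both tables and 28808 listed anywhere in the study.

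2,4-D (2,4-dichlorophenoxyacetic acid) mimics the plant hormone auxin and kills broad-leaved plants by unrestrained auxin signalling. Glyphosate, a phosphonate analogue of glycine, blocks EPSP synthase, the plant and microbial enzyme that makes the precursor of aromatic amino acids. AMPA (aminomethylphosphonic acid) is the main breakdown product of glyphosate. Human cells have neither the auxin receptor nor EPSP synthase. In liver cells, foreign compounds are commonly read out through receptors such as AHR, CAR, PXR and PPAR alpha, which switch on cytochrome P450 genes, conjugating enzymes and fatty acid oxidation genes.

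Reads recovered from the FPKM values came to 15.8 to 18 M a library with 2,4-D and 15.2 to 24.4 M with glyphosate. All 10 hepatocyte and hepatoma markers were present in all 6 libraries, with albumin (ALB) at 3693 to 4144 FPKM and alpha-fetoprotein (AFP) at 2407 to 2724 FPKM. Markers of blood, endothelium, COL1A1 and KRT7 were at or below 0.385 FPKM, while PDGFRB was at 1.71 to 2.17, KRT19 at 21.9 to 28.3 and SOX9 at 37.3 to 39 FPKM. PTPRC, CD3E, COL1A2 and DCN were not analysed here. In bulk RNA, fewer cells of a kind and less RNA per cell cannot be told apart. Outside the 6 libraries, AMPA+2,4-D replicates 1 and 3 stood apart from replicate 2, and unexposed replicates 1 to 3 stood apart from replicates 4 to 6. Nothing in the labels ties the replicates to different cultures, so p-values measure the spread between these libraries, which may be technical.

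The 2,4-D and the glyphosate profiles were close to each other. No gene passed an adjusted p of 0.05 in limma, 0 of 12114 (0%), and the smallest adjusted p was 0.208. At an unadjusted p under 0.05 there were 1252 genes (10.3%), 587 higher with 2,4-D (4.85%) and 665 lower with 2,4-D (5.49%). A second analysis, limma voom on read numbers recovered from the FPKM values, called 14 genes (0.116%), 6 higher (0.0495%) and 8 lower (0.066%) with 2,4-D. The 3 values of 2,4-D and the 3 of glyphosate did not overlap for 2150 genes (17.7%), 1010 higher (8.34%) and 1140 lower (9.41%). An exact 2-sided permutation test of 3 against 3 libraries cannot give a p below 0.1, so no single gene was tested that way. Differences below are on the log2(FPKM + 1) scale, 2,4-D minus glyphosate, which understates the fold of genes at low FPKM.

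The intervals limit what could have been missed. The 95% interval of a gene reached a median of 0.15 to either side, and the absolute difference had a median of 0.06 and a 90th percentile of 0.20. In 72% of protein-coding genes the whole interval lay within 0.25 of 0 (1.19-fold), in 98.5% within 0.5 (1.41-fold) and in 99.9% within 1 (2-fold). These folds are of FPKM + 1, and at low FPKM the fold of FPKM itself can be larger. The median gene differed by -0.0046. The squared difference between a pair of libraries, as the median over genes, was divided by the value that counting reads alone would give, a measure that grows with depth. Pairs of one 2,4-D and one glyphosate library came to 2.78 to 3.47 times that value, pairs within 2,4-D to 2.19 to 2.96 times and pairs within glyphosate to 2.20 to 2.37 times. Pairs of a 2,4-D and an unexposed library came to 10.3 to 20.5 times, and pairs of a glyphosate and an unexposed library to 15.8 to 26.4 times.

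Genes with the smallest p and more RNA with 2,4-D were led by TECTB (chr10:112283400-112305035, GRCh38), which encodes beta-tectorin, a protein of the inner ear's tectorial membrane. TECTB was at 2.97, 3.07 and 2.26 FPKM with 2,4-D, against 1.74, 1.36 and 1.30 FPKM with glyphosate, a difference of 0.61 ± 0.10 (SE; limma adjusted p = 0.208). All 3 values with 2,4-D lay above all 3 with glyphosate, on only 76 to 205 reads a library. APOB (chr2:21001429-21044073), the structural protein of VLDL and LDL, rests on far more reads, 73144 to 119668. It was at 405, 386 and 380 FPKM with 2,4-D, against 342, 334 and 333 FPKM with glyphosate, a difference of 0.21 ± 0.04 (adjusted p = 0.208). The groups did not overlap, and the values within each group lay close together. PSAT1 (chr9:78297143-78330093), the aminotransferase of serine synthesis, was at 154, 169 and 161 FPKM with 2,4-D, against 143, 137 and 132 FPKM with glyphosate. Its difference was 0.23 ± 0.05 (adjusted p = 0.214), again without overlap. ITPR2 (chr12:26336515-26833198) encodes the inositol trisphosphate receptor that releases calcium from the endoplasmic reticulum of hepatocytes. It was at 6.05, 6.56 and 5.71 FPKM with 2,4-D, against 4.56, 4.92 and 4.75 FPKM with glyphosate, a difference of 0.31 ± 0.06. EDA2R (chrX:66595637-66639298), a TNF-family receptor for ectodysplasin A2, was at 10.7, 11.7 and 12.2 FPKM with 2,4-D, against 9.99, 9.42 and 9.82 FPKM with glyphosate. UNC50 (chr2:98608579-98618515), a Golgi membrane protein, was at 24.6, 22.8 and 24.3 FPKM with 2,4-D, against 21.1, 20.6 and 20.8 FPKM with glyphosate. In both genes every 2,4-D library lay above every glyphosate library, with adjusted p = 0.214 by limma. Of these 6, voom called APOB and TECTB (adjusted p = 0.00699 each), ITPR2 (0.0154) and PSAT1 (0.027), and gave 0.0968 for EDA2R and 0.117 for UNC50.

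Genes with the smallest p and less RNA with 2,4-D were led by IL11 (chr19:55364389-55370463), a cytokine of the interleukin 6 family. IL11 was at 9.95, 9.08 and 9.04 FPKM with 2,4-D, against 13.4, 12.1 and 12 FPKM with glyphosate, a difference of -0.38 ± 0.06 (SE; limma adjusted p = 0.208). The highest value with 2,4-D was below the lowest with glyphosate. PIM1 (chr6:37170203-37175426), a serine/threonine kinase and proto-oncogene, was at 37, 36.9 and 37.9 FPKM with 2,4-D, against 45, 43.2 and 46.3 FPKM with glyphosate, a difference of -0.26 ± 0.05. RPS28 (chr19:8321158-8323340), a protein of the small ribosomal subunit, was at 68.9, 67.2 and 69.3 FPKM with 2,4-D, against 92.1, 89.2 and 85.8 FPKM with glyphosate, a difference of -0.37 ± 0.07. Its exons share 27.5% of their bases with KANK3 on the other strand, and the strand of the libraries is not given in the sources used here. MYADM (chr19:53866223-53876437), a membrane protein first found in myeloid cells, was at 28, 29 and 27.2 FPKM with 2,4-D, against 33.3, 31.9 and 33.9 FPKM with glyphosate. GPX4 (chr19:1103926-1106791), the peroxidase that reduces lipid hydroperoxides in membranes, was at 99.2, 91.4 and 96.5 FPKM with 2,4-D, against 106, 111 and 107 FPKM with glyphosate. The exons of MYADM share 12.2% of their bases with AC008440.2 on the other strand, itself at a mean of 2.96 FPKM with 2,4-D and 5.54 FPKM with glyphosate. The difference of GPX4, -0.17 ± 0.04 (adjusted p = 0.214), was the smallest of the 11. Voom called RPS28 (adjusted p = 0.00699), IL11 (0.0157) and PIM1 (0.027) of these 5, and gave 0.0551 for MYADM and 0.0804 for GPX4. The plot of FPKM by library shows these 11 genes.

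**Figure D1:**
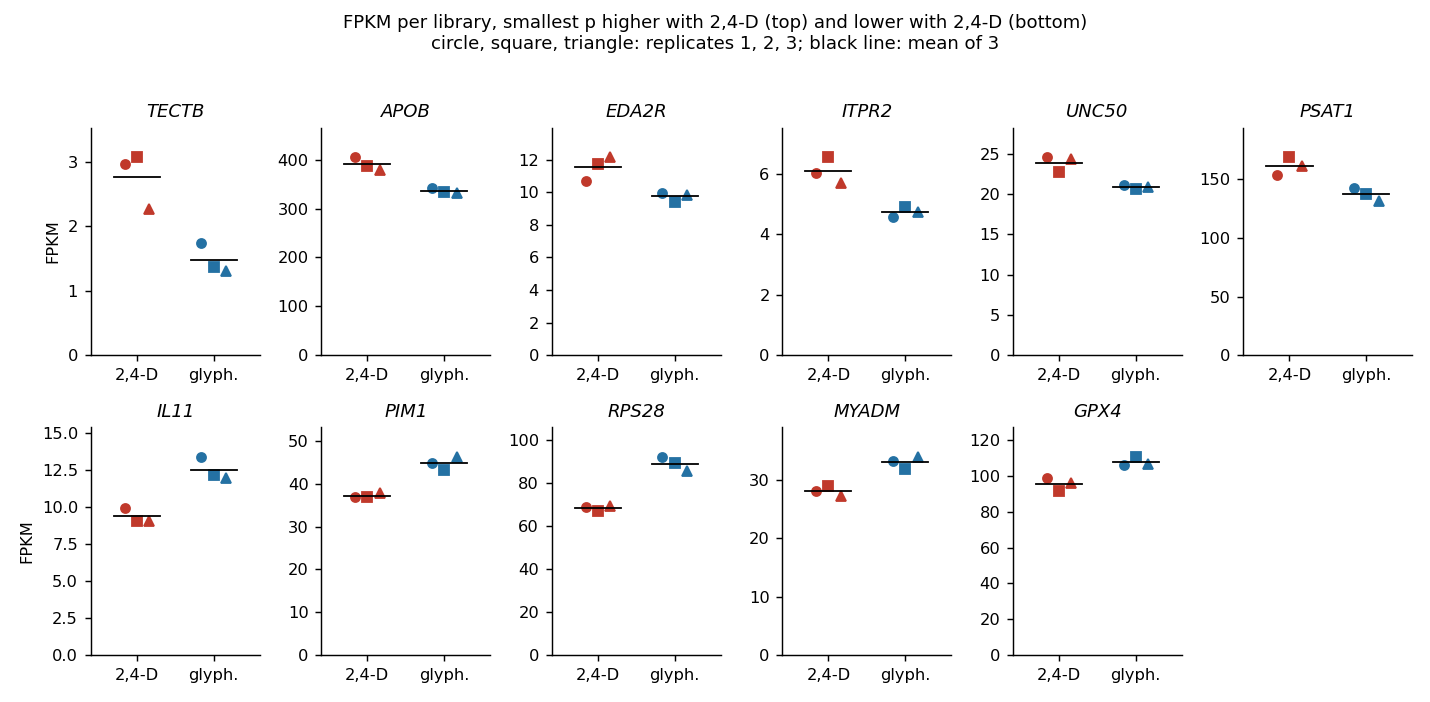
FPKM (y axes, from 0) in each 2,4-D library (red, left) and each glyphosate library (blue, right) for the protein-coding genes of smallest p, 6 higher and 5 lower with 2,4-D, with the mean of 3 as a black line. In each of the 11 panels the 3 red and the 3 blue points do not overlap, as in APOB (380 to 405 FPKM with 2,4-D, 333 to 342 FPKM with glyphosate). The genes were picked by p in this same comparison, which favours such separation, and 17.7% of all genes did not overlap.

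Voom called 6 further genes. GPAM, which adds the first acyl chain in triglyceride synthesis, was at 17.2, 21 and 16.3 FPKM with 2,4-D, against 14.9, 13.5 and 11.3 FPKM with glyphosate (voom adjusted p = 0.027). FGA, the fibrinogen alpha chain, was at 57.2, 65.2 and 60.0 FPKM with 2,4-D, against 50.7, 51.7 and 52.3 FPKM with glyphosate (0.0402). PFKFB3, the kinase that makes the activator of glycolysis fructose 2,6-bisphosphate, was at 10.8, 10.6 and 9.46 FPKM with 2,4-D, against 13.4, 11.9 and 14.3 FPKM with glyphosate (0.027). None of these 3 overlapped between groups. The others were noncoding and lower with 2,4-D. RPS7P10 and RPL15P3, processed pseudogenes of ribosomal proteins, averaged 8.43 and 90.2 FPKM with 2,4-D and 14.5 and 111 FPKM with glyphosate. MIF-AS1 was at 6.05, 8.38 and 8.24 FPKM with 2,4-D, against 18.6, 17.6 and 13.1 FPKM with glyphosate, a voom difference of -1.16 (adjusted p = 0.00699). It shares 35% of its exon bases with MIF on the opposite strand, so reads of MIF-AS1 and MIF cannot be told apart without strand. MIF itself, a secreted cytokine, averaged 59.4 FPKM with 2,4-D and 68.9 FPKM with glyphosate (limma adjusted p = 0.523).

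Genes that commonly report exposure to foreign compounds differed little between the herbicides. CYP1A1, the classic AHR target, was at 4.46, 4.61 and 3.62 FPKM with 2,4-D, against 6.20, 4.51 and 4.71 FPKM with glyphosate, and the groups overlapped. Its interval ran from -0.47 to 0.02 (limma adjusted p = 0.51). CYP2B6, a target of CAR and PXR, was at 18.7, 17.1 and 18.5 FPKM with 2,4-D, against 17.4, 17.8 and 18.6 FPKM with glyphosate, and its interval ran from -0.09 to 0.11. CYP19A1, the aromatase that makes oestrogens, averaged 4.02 ± 0.257 FPKM with 2,4-D and 3.73 ± 0.129 FPKM with glyphosate (SD, n = 3 each), with an interval from -0.04 to 0.21. CPT1A, which admits long-chain fatty acids to mitochondria, averaged 8.68 ± 0.167 FPKM with 2,4-D and 8.63 ± 0.29 FPKM with glyphosate, with an interval from -0.08 to 0.10. The intervals of CYP2B6 and CPT1A thus ended within 0.11 of 0, while that of CYP1A1 was wider. CYP3A4, the PXR target, had 0 to 2 reads a library and PDK4, a PPAR alpha target, 1 to 7 reads, and neither was tested.

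Stress and signalling genes were chosen in the same way. HMOX1, the haem oxygenase induced by oxidants, was at 13, 15.5 and 13.5 FPKM with 2,4-D, against 13.3, 12.4 and 12.2 FPKM with glyphosate (interval 0.00 to 0.27, limma adjusted p = 0.469). CDKN1A, the p53 target p21, averaged 69.9 ± 1.28 FPKM with 2,4-D and 74.3 ± 1.76 FPKM with glyphosate (SD, n = 3 each), a difference of -0.09 (-0.18 to 0.01). DKK1, a secreted WNT antagonist, was at 30.5, 29.7 and 33.2 FPKM with 2,4-D, against 35.8, 33.2 and 43.5 FPKM with glyphosate (-0.48 to -0.02). Its groups touched at 33.2 FPKM, and 1 glyphosate library stood well above the others. IGFBP3, which binds insulin-like growth factors, was at 17.7, 16.4 and 22.5 FPKM with 2,4-D, against 21.1, 23.6 and 26.9 FPKM with glyphosate (-0.62 to -0.04). UCP2, a mitochondrial uncoupling protein, was at 4.01, 5.41 and 3.84 FPKM with 2,4-D, against 4.04, 3.89 and 3.11 FPKM with glyphosate (-0.02 to 0.44). HSPA6, an HSP70 chaperone whose near-identical copies can share reads, was at 7.44, 11.7 and 9.31 FPKM with 2,4-D, against 8.62, 9.30 and 9.96 FPKM with glyphosate (-0.42 to 0.43). The unadjusted interval excluded 0 for HMOX1, DKK1 and IGFBP3, and none of these genes passed adjustment. The plot of intervals sets them beside the 11 genes of smallest p.

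**Figure D2:**
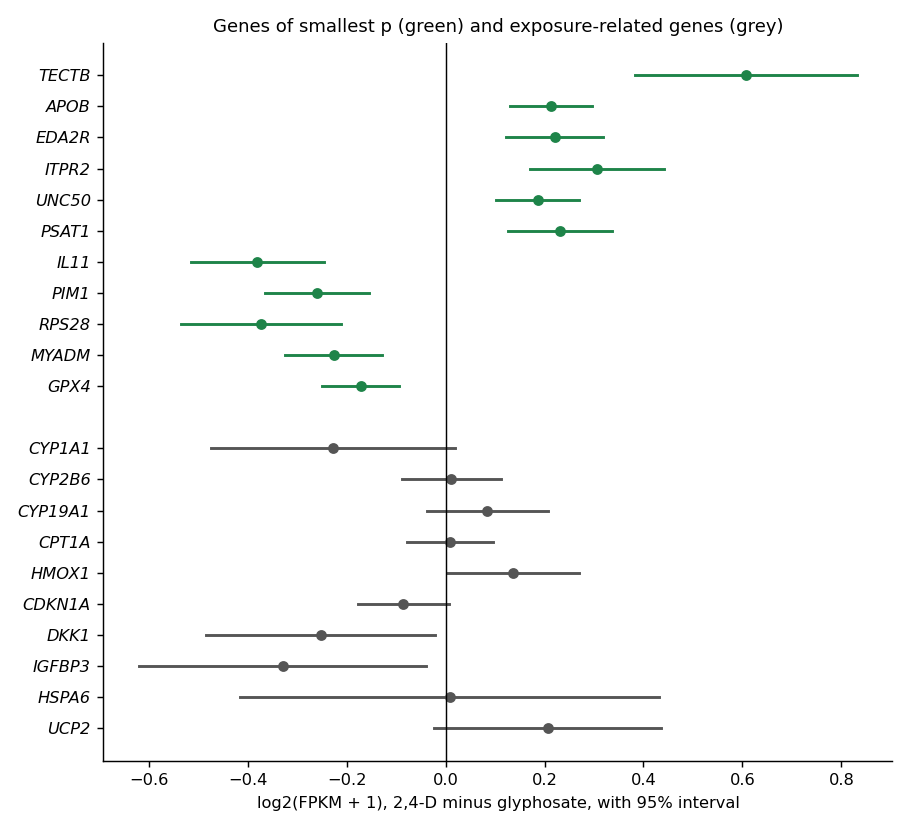
Difference in log2(FPKM + 1), 2,4-D minus glyphosate (x axis), with its 95% interval, for 11 genes of smallest p (green) and 10 genes that report exposure or stress (grey). The green intervals run from TECTB at 0.61 to IL11 at -0.38, while those of CYP2B6 and CPT1A are centred within 0.02 of 0.

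Genes were then grouped into 30 lists by function, and no member of any list was called by limma. The voom genes above that are not among the 11, and the members named from here on, were chosen after their values were seen, mostly as those of smallest p in their list. Each list is described by its tested members at an unadjusted p under 0.05, to be read against 4.85% of all genes higher and 5.49% lower, and by its median, to be read against -0.0046 over all genes. With 1 of the 6 libraries left out, 847 to 1206 of all genes were at that p in either direction, the fewest without glyphosate replicate 3, and list counts moved with them. In the plot of the 30 lists the largest positive medians belonged to the mitochondrially encoded genes and to the ATF4 amino acid response, and the largest negative ones to immediate early genes, glycolysis and hypoxia, and ribosomal proteins.

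**Figure D3:**
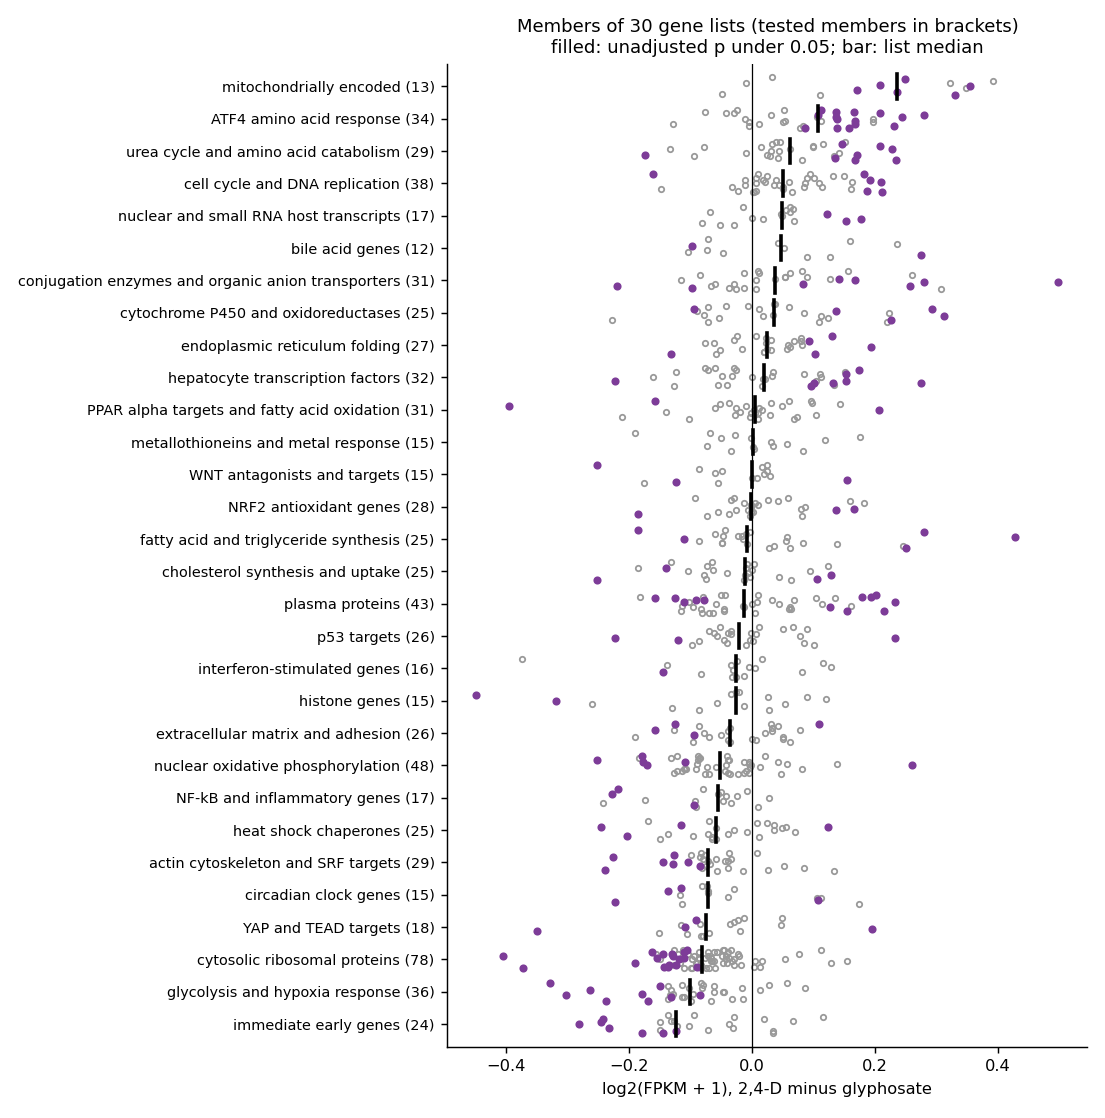
Difference in log2(FPKM + 1), 2,4-D minus glyphosate (x axis), for each tested member of 30 gene lists (y axis, number of tested members in brackets), filled where the unadjusted p is under 0.05, with the list median as a black bar. Medians run from 0.24 for the 13 mitochondrially encoded genes at the top to -0.12 for the 24 immediate early genes at the bottom.

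The 13 protein genes of mitochondrial DNA encode core subunits of the respiratory chain and ATP synthase. Of these, 6 were at p under 0.05 and higher with 2,4-D (46.2%) and 0 lower, with a list median of 0.24. The count was 2 without 2,4-D replicate 3, 3 without 2,4-D replicate 2, glyphosate replicate 2 or glyphosate replicate 3, and 1 when genes were not filtered on level, while the median stayed between 0.20 and 0.27 with any 1 library left out. MT-CO3, a subunit of cytochrome oxidase, was at 4270, 3923 and 4119 FPKM with 2,4-D, against 3655, 3447 and 3558 FPKM with glyphosate. MT-ND1, a subunit of complex I, was at 2976, 2855 and 3113 FPKM with 2,4-D, against 2605, 2480 and 2439 FPKM with glyphosate. MT-ATP6 of the ATP synthase was at 3014, 3248 and 3248 FPKM with 2,4-D, against 2559, 2530 and 2470 FPKM with glyphosate. In 9 of the 13 genes every 2,4-D library lay above every glyphosate library, against 8.34% of all genes. MT-CO2, MT-ND3, MT-ND5 and MT-ND6 overlapped. MT-ND6, the member encoded on the other strand of the mitochondrial genome, was at 419, 389 and 370 FPKM with 2,4-D, against 406, 394 and 385 FPKM with glyphosate. The 13 genes summed to 45211.7 to 49045.7 FPKM with 2,4-D, against 40077.1 to 41526.5 FPKM with glyphosate. All genes of the mitochondrial chromosome, rRNA and tRNA genes included, took 21.5 to 22.5% of all FPKM with 2,4-D, against 19.9 to 20.3% with glyphosate. They took 21.9 to 24.2% with AMPA+2,4-D, 20.7 to 23.8% with AMPA, 20.8 to 22.9% with glyphosate+2,4-D and 21.6 to 25% in unexposed cells, so the glyphosate libraries were the lowest of the study. Voom over the 15 libraries called 0 of the 13, and voom on the 6 libraries alone, chosen after seeing the data, called 9 higher, among 116 genes called (0.958%), 41 higher (0.338%) and 75 lower (0.619%). The nuclear genes of the respiratory chain had a median of -0.05, with 1 of 48 higher and 5 lower. Without 2,4-D replicate 2 the median was -0.0012 with 1 lower, and without 2,4-D replicate 3 it was -0.09 with 13 lower, so the distance of this list from 0 rests on replicate 2. Among them NDUFS8, a complex I subunit, was at 8.49, 7.15 and 7.60 FPKM with 2,4-D, against 8.73, 9.32 and 8.61 FPKM with glyphosate.

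ATF4 is the transcription factor that raises amino acid synthesis, amino acid transport and tRNA charging when amino acids run short or the endoplasmic reticulum is stressed. Of 34 tested genes of the ATF4 response, 15 were at p under 0.05 and higher with 2,4-D (44.1%) and 0 lower, with a median of 0.11 and 26 above 0. The count was 5 without glyphosate replicate 3, 9 without 2,4-D replicate 1 or 2,4-D replicate 2, and 7 in the fit of all 21 libraries, while the median stayed between 0.08 and 0.11 with any 1 library left out. Serine and one-carbon synthesis held several of them. PSPH, the phosphatase after PSAT1, was at 23.5, 26.7 and 25.4 FPKM with 2,4-D, against 20.8, 22.2 and 22 FPKM with glyphosate. PHGDH, the first enzyme of the same pathway, was at 14.2, 14.1 and 13.7 FPKM with 2,4-D, against 12.8, 12.5 and 12.6 FPKM with glyphosate. MTHFD2, a mitochondrial folate enzyme, averaged 82.7 FPKM with 2,4-D and 75.2 FPKM with glyphosate. In these 3 genes the groups did not overlap, and differences were 0.14 to 0.21. Among tRNA synthetases, WARS was at 40.0, 41.4 and 38.8 FPKM with 2,4-D, against 37, 36.2 and 34.1 FPKM with glyphosate. MARS averaged 33.3 FPKM with 2,4-D and 30.7 FPKM with glyphosate, and AARS 101 FPKM with 2,4-D and 95 FPKM with glyphosate. SLC7A11, the cystine transporter, averaged 14.9 FPKM with 2,4-D and 13.2 FPKM with glyphosate. DDIT3 and TRIB3, members tied to stress, overlapped between groups. DDIT3, the pro-death factor CHOP, averaged 64.4 ± 0.849 FPKM with 2,4-D and 66.6 ± 6.45 FPKM with glyphosate (SD, n = 3 each), and TRIB3, its pseudokinase target, 105 ± 10.0 FPKM with 2,4-D and 107 ± 4.15 FPKM with glyphosate. Limma adjusted p-values of the list began at 0.214 for PSAT1. The endoplasmic reticulum folding list, which shares upstream signals with ATF4, had 4 of 27 higher (14.8%) and 1 lower (3.70%), and 2 higher without 2,4-D replicate 1, glyphosate replicate 2 or glyphosate replicate 3. HERPUD1, an adaptor for degradation of misfolded proteins, was at 64, 68.5 and 68.5 FPKM with 2,4-D, against 60.7, 60.2 and 54.7 FPKM with glyphosate.

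The ATF4 site known in promoters of this response, the C/EBP-ATF element, was searched as TGATGNAA on both strands in RefSeq promoter windows of 300 bases (250 before to 50 after the start, GRCh38.p14). Of the 34 tested list members 26 matched a window, and 5 of these held the letters (19.2%), against 1270 of all 35116 windows (3.62%). The list was made of genes known for the ATF4 response, so its larger share is no result of these data. Members without a window, PSPH, MARS and SLC7A11 among them, could not be searched. The 5 were ASNS, CHAC1, SLC3A2, SLC7A1 and AARS. The windows below are shown because ASNS and CHAC1 are textbook ATF4 targets and AARS is the holder of the letters with p under 0.05. Each is printed 5′ to 3′ along the gene, with the matching letters in capitals, reversed and complemented in CHAC1 and AARS.
ASNS (chr7:97872359-97872658, minus strand): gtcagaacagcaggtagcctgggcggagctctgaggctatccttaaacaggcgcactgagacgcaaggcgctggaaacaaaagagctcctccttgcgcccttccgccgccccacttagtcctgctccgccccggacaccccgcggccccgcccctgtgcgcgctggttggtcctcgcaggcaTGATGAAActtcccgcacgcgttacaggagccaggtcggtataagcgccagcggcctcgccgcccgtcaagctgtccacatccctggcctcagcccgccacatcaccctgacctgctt
CHAC1 (chr15:40953221-40953520, plus strand): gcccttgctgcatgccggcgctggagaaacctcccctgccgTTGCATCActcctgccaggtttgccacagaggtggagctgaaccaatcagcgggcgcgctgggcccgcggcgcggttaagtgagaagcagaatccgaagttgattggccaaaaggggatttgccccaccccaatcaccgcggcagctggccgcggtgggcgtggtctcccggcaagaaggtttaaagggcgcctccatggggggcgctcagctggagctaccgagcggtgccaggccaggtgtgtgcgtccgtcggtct
AARS (chr16:70289457-70289756, minus strand): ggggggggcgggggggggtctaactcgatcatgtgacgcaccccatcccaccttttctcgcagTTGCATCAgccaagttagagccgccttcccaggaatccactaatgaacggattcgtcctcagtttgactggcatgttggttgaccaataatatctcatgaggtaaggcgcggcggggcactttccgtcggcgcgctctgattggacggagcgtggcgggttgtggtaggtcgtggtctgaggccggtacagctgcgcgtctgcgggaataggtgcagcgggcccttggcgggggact
ASNS, asparagine synthetase, was at 2.38, 2.64 and 1.99 FPKM with 2,4-D, against 2.02, 2.08 and 1.62 FPKM with glyphosate, an overlapping difference of 0.20 (limma unadjusted p = 0.101). CHAC1, which degrades glutathione, was at 2.49, 3.20 and 1.78 FPKM with 2,4-D, against 1.70, 1.85 and 2.52 FPKM with glyphosate (0.20, limma unadjusted p = 0.217). AARS was at 103, 101 and 98.8 FPKM with 2,4-D, against 97.6, 95.3 and 92.3 FPKM with glyphosate (0.09, limma unadjusted p = 0.0257, adjusted p = 0.424). SLC3A2 and SLC7A1, amino acid transporter subunits that also hold the letters, differed by -0.02 and 0.01.

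Glycolysis genes burn glucose, and the list joins them with glucose transporters and other targets of the hypoxia factor HIF. Of 36 tested, 0 were at p under 0.05 and higher with 2,4-D and 9 lower (25%), with a median of -0.10 and 4 above 0. Without 2,4-D replicate 2 there were 5 lower and the median was -0.04, without 2,4-D replicate 3 there were 16 and it was -0.14, and without glyphosate replicate 3 there were 5 and it was -0.08. SLC2A1, the glucose transporter GLUT1, was at 145, 138 and 138 FPKM with 2,4-D, against 162, 153 and 162 FPKM with glyphosate (difference -0.18 ± 0.04 SE, limma adjusted p = 0.217). SLC2A3, the transporter GLUT3, was at 44.8, 41 and 49.3 FPKM with 2,4-D, against 52.5, 49.99 and 57.3 FPKM with glyphosate. PFKFB4, a relative of PFKFB3, was at 11.9, 10.6 and 12.1 FPKM with 2,4-D, against 13.6, 13 and 15.6 FPKM with glyphosate. In all 3 genes the groups did not overlap. ADM, the HIF-induced peptide adrenomedullin, was at 15.5, 14.6 and 14.6 FPKM with 2,4-D, against 17.2, 16.2 and 17.3 FPKM with glyphosate. PKM, pyruvate kinase, was at 108, 89.95 and 103 FPKM with 2,4-D, against 109, 109 and 116 FPKM with glyphosate. CA9, a carbonic anhydrase and strong HIF target, overlapped, at 33.5, 34.9 and 37 FPKM with 2,4-D, against 39.7, 37.9 and 31.7 FPKM with glyphosate.

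Immediate early genes, transcription factors and phosphatases that answer growth signals within minutes, had the lowest median of the 30 lists, -0.12, with 0 of 24 at p under 0.05 higher and 7 lower (29.2%). DUSP1, a phosphatase that ends MAP kinase signals, was at 39.7, 45.1 and 40.7 FPKM with 2,4-D, against 48.5, 48.4 and 50.8 FPKM with glyphosate. ATF3, a stress-induced repressor, was at 15.9, 16.6 and 16.4 FPKM with 2,4-D, against 19.6, 18.3 and 18 FPKM with glyphosate. DUSP5, which acts on ERK in the nucleus, was at 10.2, 10.0 and 10.2 FPKM with 2,4-D, against 12.2, 12.1 and 12.4 FPKM with glyphosate. None of these overlapped between groups. Targets of SRF and the actin cytoskeleton had 0 of 29 higher and 7 lower (24.1%), median -0.07. The median was -0.03 without 2,4-D replicate 2 and -0.04 without glyphosate replicate 3, and 11 were lower without 2,4-D replicate 1. SRF itself was at 12.8, 13.2 and 13.3 FPKM with 2,4-D, against 14.3, 14.3 and 15.2 FPKM with glyphosate. TAGLN, an actin-binding SRF target, was at 7.21, 6.19 and 7.07 FPKM with 2,4-D, against 8.33, 8.17 and 8.15 FPKM with glyphosate (-0.24 ± 0.05 SE, limma adjusted p = 0.217). Targets of YAP, which responds to cell contact, had 1 of 18 higher (5.56%) and 3 lower (16.7%), median -0.07, and 1 lower without 2,4-D replicate 2, glyphosate replicate 1 or glyphosate replicate 3. ANKRD1, one of them, was at 25.6, 28.4 and 28.8 FPKM with 2,4-D, against 33.6, 34.6 and 38.1 FPKM with glyphosate. CTGF, another, averaged 175 FPKM with 2,4-D and 189 FPKM with glyphosate. NF-kB and inflammatory genes had 0 of 17 higher and 3 lower (17.6%), median -0.06, and 1 lower without 2,4-D replicate 2 or glyphosate replicate 1. CCL20, a chemokine, was at 255, 227 and 268 FPKM with 2,4-D, against 292, 288 and 298 FPKM with glyphosate.

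Cytosolic ribosomal protein genes, 78 tested, had 0 at p under 0.05 higher and 17 lower with 2,4-D (21.8%), with a median of -0.08. Without 2,4-D replicate 2 there were 5 lower and 1 higher and the median was -0.02, and without 2,4-D replicate 3 there were 33 lower and it was -0.12. Without glyphosate replicate 1 or 2 there were 10 lower, and in the fit of all 21 libraries 3. Next to RPS28, RPS29 of the same subunit was at 38.9, 30.8 and 38.5 FPKM with 2,4-D, against 51.3, 47.7 and 44.6 FPKM with glyphosate. RPS16 was at 378, 367 and 398 FPKM with 2,4-D, against 421, 411 and 417 FPKM with glyphosate. Ribosomal genes have many processed pseudogenes, with which their reads can be shared. The list took 9.14 to 9.95% of all FPKM with 2,4-D, against 10.1 to 10.2% with glyphosate, and 2,4-D replicate 2 was the lowest. Processed pseudogenes lay the same way, with 2 of 306 at p under 0.05 higher, 43 lower and a median of -0.12, and took 2.53 to 2.76% of FPKM with 2,4-D, against 2.77 to 2.96% with glyphosate. Antisense genes had 14 of 573 higher, 46 lower and a median of -0.11, and took 0.688 to 0.804% of FPKM with 2,4-D, against 0.827 to 0.955% with glyphosate. With glyphosate+2,4-D the ribosomal, pseudogene and antisense shares were 9.98 to 10.2%, 2.71 to 2.92% and 0.726 to 0.816%. With AMPA+2,4-D they were 9.17 to 9.46%, 2.76 to 2.88% and 0.445 to 0.843%. With AMPA alone they were 9.71 to 10.0%, 2.68 to 2.71% and 0.821 to 0.865%. The pseudogene share was thus higher, not lower, with AMPA+2,4-D than with AMPA. The part of these shares in the results was not tested. The plot of 4 lists by level sets the ribosomal, mitochondrial, ATF4 and glycolysis genes against all protein-coding genes.

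**Figure D4:**
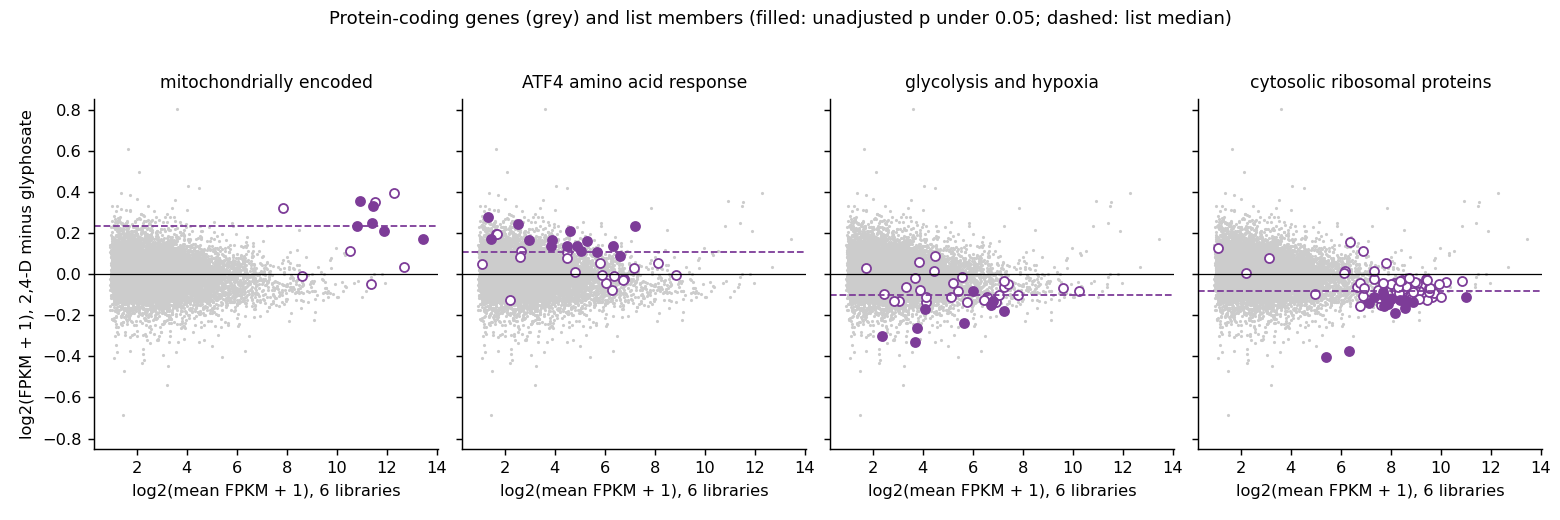
Difference in log2(FPKM + 1), 2,4-D minus glyphosate (y axis), against log2 of the mean FPKM + 1 of the 6 libraries (x axis) for protein-coding genes (grey) and the members of 4 lists (purple, filled where the unadjusted p is under 0.05), with the list median dashed. Most mitochondrially encoded and ATF4 genes lie above 0 (medians 0.24 and 0.11), and most glycolysis and ribosomal genes below it (medians -0.10 and -0.08).

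Genes of liver function split by pathway. Among 43 secreted plasma proteins, 7 were at p under 0.05 higher (16.3%) and 5 lower (11.6%), median -0.01. The lower count was 1 without 2,4-D replicate 2, 2 without glyphosate replicate 3 and 3 without glyphosate replicate 1. Beside APOB and FGA, FGG, the fibrinogen gamma chain, was at 43.4, 45.1 and 45.9 FPKM with 2,4-D, against 38.6, 38.9 and 39.6 FPKM with glyphosate. SERPINC1, antithrombin, was at 85.2, 95.4 and 88.5 FPKM with 2,4-D, against 80.1, 79.7 and 77.3 FPKM with glyphosate. Neither overlapped between groups. APOE, an apolipoprotein of remnant particles, lay the other way, at 766, 732 and 781 FPKM with 2,4-D, against 820, 813 and 795 FPKM with glyphosate, as did VTN, vitronectin, with averages of 64.8 FPKM with 2,4-D and 70.8 FPKM with glyphosate. Urea cycle and amino acid catabolism genes had 7 of 29 higher (24.1%) and 1 lower (3.45%), median 0.06, and 4 higher without 2,4-D replicate 2. ASS1, which joins citrulline and aspartate, was at 29.8, 32.1 and 31.6 FPKM with 2,4-D, against 28.3, 26.5 and 24.6 FPKM with glyphosate. ARG2, the mitochondrial arginase, was the member on the lower side, at 59.2, 54.9 and 57.2 FPKM with 2,4-D, against 67.5, 60.2 and 66.1 FPKM with glyphosate. ARG2 shares 44.2% of its exon bases with VTI1B on the other strand, itself at a mean of 10.6 FPKM with 2,4-D and 10.2 FPKM with glyphosate. Hepatocyte transcription factors had 7 of 32 higher (21.9%) and 1 lower (3.13%), median 0.02. The higher count was 2 without 2,4-D replicate 2 and 3 without glyphosate replicate 1 or glyphosate replicate 3, and the median was -0.0053 without glyphosate replicate 2. HNF4A, the central one, averaged 26.3 ± 1.35 FPKM with 2,4-D and 24.5 ± 0.377 FPKM with glyphosate (SD, n = 3 each), and NR1I2, which encodes PXR, 2.58 ± 0.0615 FPKM with 2,4-D and 2.17 ± 0.145 FPKM with glyphosate.

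Genes that process foreign compounds held more members on the higher side. Cytochrome P450 and oxidoreductase genes had 4 of 25 at p under 0.05 higher (16%) and 1 lower (4%), median 0.04, and 2 higher without glyphosate replicate 1. AOX1, aldehyde oxidase, was at 21.9, 21.3 and 21.4 FPKM with 2,4-D, against 19.9, 19.6 and 18.9 FPKM with glyphosate (0.14 ± 0.03 SE, limma adjusted p = 0.225). ADH6, an alcohol dehydrogenase, was at 3.79, 4.67 and 3.41 FPKM with 2,4-D, against 2.99, 2.87 and 3.20 FPKM with glyphosate. POR, which passes electrons to P450 enzymes, lay lower in all 3, at 50.9, 50.1 and 50.9 FPKM with 2,4-D, against 54, 53.5 and 54.8 FPKM with glyphosate. Conjugation enzymes and organic ion transporters had 6 of 31 higher (19.4%) and 2 lower (6.45%), median 0.04, and 3 higher with 0 lower without 2,4-D replicate 2. SLC22A3, an organic cation transporter, was at 10.7, 10.3 and 9.21 FPKM with 2,4-D, against 8.01, 8.75 and 7.60 FPKM with glyphosate. ABCC4, an efflux pump of organic anions, was at 1.13, 1.24 and 1.23 FPKM with 2,4-D, against 0.787, 0.907 and 0.828 FPKM with glyphosate. ABCC4 reached 1 FPKM only with 2,4-D, so it passed the level filter through the group where it was higher. Its place among the 6 rests on that filter. GSTA2, a glutathione transferase with near-identical copies that can share its reads, was at 3.21, 5.36 and 3.68 FPKM with 2,4-D, against 3.13, 2.24 and 2.31 FPKM with glyphosate, on 45 to 112 reads. NRF2 targets, the antioxidant set, had 2 of 28 higher (7.14%) and 1 lower (3.57%), and metallothioneins and metal response genes 0 of 15 either way, with both medians within 0.01 of 0.

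Lipid genes were mixed. Fatty acid and triglyceride synthesis had 3 of 25 at p under 0.05 higher (12%) and 2 lower (8%), median -0.01. GPAM and CIDEC, a lipid droplet protein, were on the higher side, CIDEC at 4.46, 4.27 and 4.61 FPKM with 2,4-D, against 3.34, 3.81 and 3.33 FPKM with glyphosate. AGPAT2, the acyltransferase that follows GPAM in the pathway, was on the lower side, at 19.3, 19 and 20.2 FPKM with 2,4-D, against 21.2, 23.4 and 22.4 FPKM with glyphosate. Cholesterol synthesis and uptake had 2 of 25 higher and 2 lower (8% each), median -0.01. HMGCS1, an early enzyme of cholesterol synthesis, averaged 14.4 FPKM with 2,4-D and 13.3 FPKM with glyphosate. PPAR alpha targets had 1 of 31 higher (3.23%) and 2 lower (6.45%), median 0.01. ANGPTL4, an inhibitor of lipoprotein lipase, was at 6.26, 5.87 and 6.25 FPKM with 2,4-D, against 7.34, 8.48 and 9.41 FPKM with glyphosate (-0.40 ± 0.11 SE, limma adjusted p = 0.265). SLC27A2, a fatty acid transporter, averaged 5.62 FPKM with 2,4-D and 4.72 FPKM with glyphosate. Bile acid genes had 1 of 12 higher and 1 lower (8.33% each), median 0.05. NR1H4, the bile acid receptor FXR, was at 10.7, 12.5 and 10.4 FPKM with 2,4-D, against 10.3, 9.07 and 7.91 FPKM with glyphosate.

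Cell cycle and DNA replication genes had 5 of 38 at p under 0.05 higher (13.2%) and 1 lower (2.63%), median 0.05, with 10 higher without glyphosate replicate 1 and 3 without glyphosate replicate 2 or glyphosate replicate 3. TOP2A, the topoisomerase of dividing cells, was at 18.4, 16.9 and 16.7 FPKM with 2,4-D, against 16.3, 14.4 and 14.5 FPKM with glyphosate. PLK1, a mitotic kinase, averaged 6.24 FPKM with 2,4-D and 5.37 FPKM with glyphosate, while MCM5 of the replication helicase averaged 5.13 FPKM with 2,4-D and 5.85 FPKM with glyphosate. Heat shock chaperones had 1 of 25 higher (4%) and 3 lower (12%), median -0.06, and 6 lower without 2,4-D replicate 2. DNAJB1, an HSP70 co-chaperone, was at 69.8, 77.8 and 72.8 FPKM with 2,4-D, against 82.1, 83.4 and 88.7 FPKM with glyphosate. Targets of p53 had 1 of 26 higher (3.85%) and 2 lower (7.69%), median -0.02. GDF15, a secreted stress hormone, was at 512, 523 and 492 FPKM with 2,4-D, against 605, 585 and 593 FPKM with glyphosate (-0.22 ± 0.06 SE, limma adjusted p = 0.265). Circadian clock genes had 1 of 15 higher (6.67%) and 3 lower (20%), median -0.07, with the haem receptor NR1D1 averaging 13.7 FPKM with 2,4-D and 16.1 FPKM with glyphosate. WNT antagonists and targets had 1 of 15 higher and 2 lower, extracellular matrix genes 1 of 26 higher and 3 lower, interferon-stimulated genes 0 of 16 higher and 1 lower, and histone genes 0 of 15 higher and 2 lower. HIST1H1C, a linker histone, was at 24.1, 21.3 and 21.7 FPKM with 2,4-D, against 25.9, 28.1 and 30.6 FPKM with glyphosate. Nuclear and small RNA host transcripts had 3 of 17 higher (17.6%) and 0 lower, median 0.05, with the nuclear RNA MALAT1 averaging 17.1 FPKM with 2,4-D and 15 FPKM with glyphosate.

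Differences of 2-fold or more in FPKM + 1 were reached by 28 genes (0.231%), 9 higher and 19 lower with 2,4-D, and none of them was protein-coding. They included 16 miRNA genes, 4 small nuclear RNAs and 3 mitochondrial tRNAs. Their deposited lengths had a median of 78.5 bases, and the highest read number of any library had a median of 9. MIR483, within the IGF2 gene, was listed at 0 in all 3 libraries with 2,4-D and was at 1.35, 6 and 2.66 FPKM with glyphosate, on at most 11 reads. Of the 28, 5 genes including MIR483 were listed at 0 in all 3 libraries of 1 group. These passed the level filter only through the group where they were higher, so the filter favours such differences. MIF-AS1, with 157 to 628 reads a library, was the longest of the 28. Among protein-coding genes the largest differences were those of SMN1 at 0.80, C1orf53 at -0.69 and TECTB at 0.61. SMN1, the splicing factor gene of spinal muscular atrophy, was at 7, 19.7 and 18.7 FPKM with 2,4-D, against 8.12, 6.96 and 7.45 FPKM with glyphosate, so replicate 1 with 2,4-D lay among the glyphosate libraries. SMN1 shares almost all its sequence with SMN2, and its reads are uncertain.

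AMPA+2,4-D against AMPA is a second pair of groups that differ by 2,4-D, both with AMPA, and share no library with the first pair. The first pair differs by glyphosate as well as by 2,4-D, and the parts of these compounds in a difference there cannot be told apart. In the same limma fit 974 genes were called (8.04%), 319 higher with AMPA+2,4-D (2.63%) and 655 lower (5.41%). Without AMPA+2,4-D replicates 1 and 3, which stood apart, 2 were called, RPS28 (-0.42) and DUSP5 (-0.70). Of the 1252 genes at p under 0.05 between 2,4-D and glyphosate, 81.4% had the same sign in the second pair, against 64.1% of all tested genes. With AMPA+2,4-D replicate 2 alone the shares were 76.4% and 59.9%. Among the 587 genes on the higher side, 105 (17.9%) were called higher in the second pair and 3 lower, and the 105 were 32.9% of those called higher. Among the 665 on the lower side, 192 (28.9%) were called lower and 2 higher, and the 192 were 29.3% of those called lower. Across the 10098 protein-coding genes, which are not independent, Pearson's r of the differences was 0.45, and 0.32 with replicate 2 alone. The pairs shared the cell line and the pooled spread of 1 fit.

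Of the 11 genes of smallest p, 9 were called in the second pair, against 8.04% of all genes. All 11 had the same sign there, against 64.1% of all genes. The calls depend on the pooled fit. The 6 libraries of this pair alone gave 3 calls, KRT19, NDUFA4L2 and MIR6870, which are not among the 11. TECTB was at 2.76, 2.82 and 2.14 FPKM with AMPA+2,4-D, against 1.49, 1.41 and 1.14 FPKM with AMPA, and rose by 0.60 ± 0.10 (SE; limma adjusted p = 0.00785). APOB rose by 0.19 ± 0.04, to 436, 396 and 419 FPKM with AMPA+2,4-D, against 371, 369 and 356 FPKM with AMPA (adjusted p = 0.0126). IL11 was at 7.29, 8.44 and 8.03 FPKM with AMPA+2,4-D, against 11.8, 11.5 and 11.7 FPKM with AMPA, and fell by 0.50 (adjusted p = 0.00311). In each of these 3 genes every library with AMPA+2,4-D lay beyond every library with AMPA. RPS28 was at 55.2, 67.4 and 50.8 FPKM with AMPA+2,4-D, against 88.7, 88.4 and 94.3 FPKM with AMPA, with replicate 2 the nearest to AMPA. GPX4, PIM1, PSAT1, ITPR2 and UNC50 were also called, GPX4 with adjusted p = 0.00311 and the others with 0.00785, 0.021, 0.0385 and 0.0307. EDA2R (0.0537) and MYADM (0.0545) were not called. With AMPA+2,4-D replicate 2 alone, differences were 0.71 for TECTB, 0.12 for APOB and -0.42 for IL11.

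Several genes had larger differences in the second pair. GSTA2 was at 7.30, 4.70 and 4.81 FPKM with AMPA+2,4-D, against 2.12, 2.57 and 2.37 FPKM with AMPA (difference 0.96 ± 0.19 SE, limma adjusted p = 0.0116). SLC17A2, a transporter of the sodium phosphate family, was at 35.4, 31.8 and 26.9 FPKM with AMPA+2,4-D, against 20.7, 18.1 and 17.3 FPKM with AMPA (0.71 ± 0.12, adjusted p = 0.00672). In the first pair SLC17A2 was at 24.2, 29.2 and 21.7 FPKM with 2,4-D, against 20.6, 18.1 and 16.7 FPKM with glyphosate (0.42 ± 0.12, adjusted p = 0.266). GPAM was at 22.2, 19.3 and 18.2 FPKM with AMPA+2,4-D, against 14, 12.8 and 12.6 FPKM with AMPA (0.56 ± 0.11, adjusted p = 0.0109). All 3 genes had higher values in each library with 2,4-D than in any library of its partner group, in both pairs. List counts in the second pair are to be read against 2.63% of all genes called higher and 5.41% lower, and a median of -0.0029. They come from the fit of 15 libraries, and the 6 libraries of this pair alone gave 3 calls among all genes. Glycolysis and hypoxia genes had 21 of 36 called lower and 0 higher with AMPA+2,4-D, with a median of -0.22. Actin and SRF genes had 19 of 29 lower and 0 higher, with a median of -0.23. Ribosomal genes had 21 of 78 lower and 0 higher. The ATF4 list had 3 of 34 higher and 0 lower, with a median of 0.06, and the mitochondrially encoded genes 2 of 13 higher and 0 lower, with a median of 0.01. The split of calls was 32.8% higher, and 66.7% after rescaling to TPM (610 higher and 305 lower), where the median of all genes moved to 0.04, so the balance of directions in the second pair depends on the scaling. That of the first pair does too. At a limma unadjusted p under 0.05 it had 587 genes higher and 665 lower, and with TPM 586 and 511. The plot of both pairs shows the genes at p under 0.05.

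**Figure D5:**
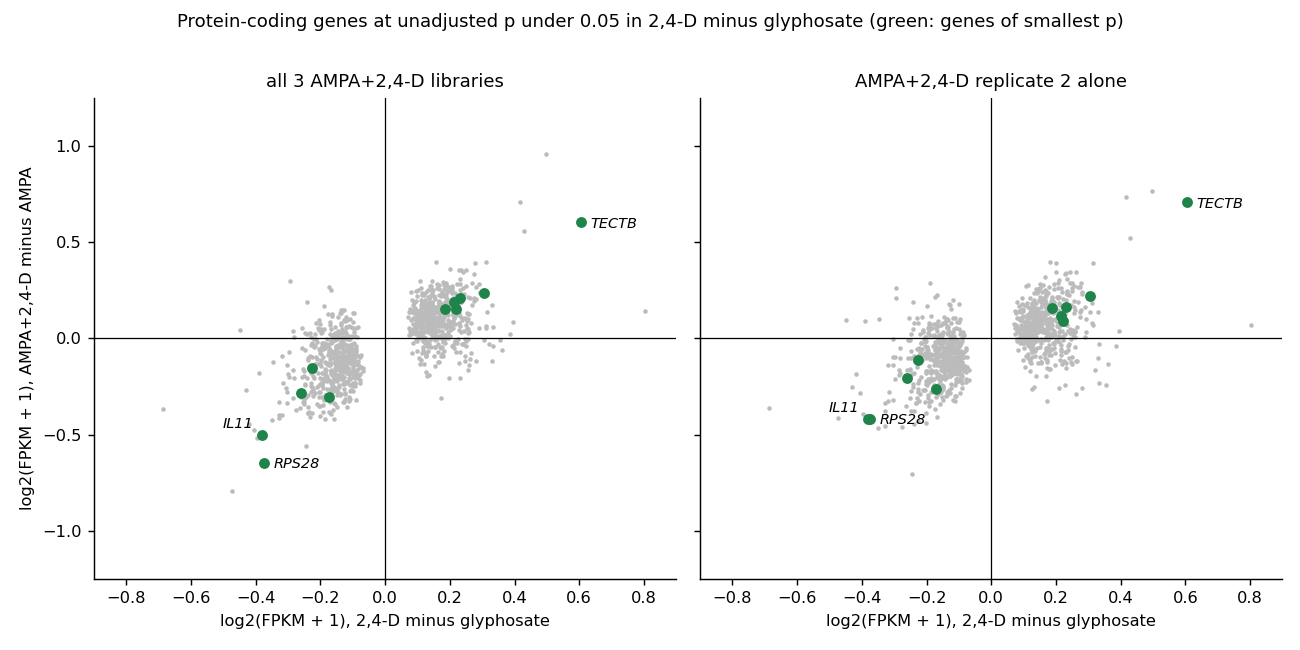
Difference in log2(FPKM + 1) for AMPA+2,4-D minus AMPA (y axes) against 2,4-D minus glyphosate (x axes) for the 1039 protein-coding genes at unadjusted p under 0.05 between 2,4-D and glyphosate, with the 11 genes of smallest p in green. All 11 green points lie in the same direction on both axes, on the left with all 3 AMPA+2,4-D libraries (TECTB 0.60, RPS28 -0.65) and on the right with replicate 2 alone (TECTB 0.71, RPS28 -0.42).

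Levels in the other groups place these genes. TECTB was at 3.04 to 3.14 FPKM with glyphosate+2,4-D and at 3.48 to 5.68 FPKM in the 6 unexposed libraries. APOB was at 365 to 381 FPKM with glyphosate+2,4-D and 443 to 571 FPKM in unexposed cells. Leaving AMPA aside, the order of its levels was glyphosate, then the groups with 2,4-D, then unexposed cells. With AMPA alone APOB lay above glyphosate and overlapped glyphosate+2,4-D. GPAM had the same order of glyphosate, groups with 2,4-D and unexposed cells. It was at 17.4 to 20.2 FPKM with glyphosate+2,4-D and 32.6 to 42.1 FPKM in unexposed cells, and with AMPA alone it overlapped glyphosate. Genes lower with 2,4-D mostly ran the other way. IL11 was at 8.06 to 9.35 FPKM with glyphosate+2,4-D and 1.32 to 6.65 FPKM in unexposed cells, and PFKFB3 at 8.87 to 10.3 FPKM with glyphosate+2,4-D and 3.04 to 4.04 FPKM in unexposed cells. In IL11, PIM1 and PFKFB3, cells given glyphosate+2,4-D lay nearer to those given 2,4-D than to those given glyphosate. GPX4 did not follow this, at 99.9 to 106 FPKM with glyphosate+2,4-D, between 91.4 to 99.2 FPKM with 2,4-D and 106 to 111 FPKM with glyphosate. EDA2R did not either, at 9.93 to 10.1 FPKM with glyphosate+2,4-D, close to the 9.42 to 9.99 FPKM with glyphosate. These levels share libraries with the comparison itself and are given as description.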

How the data were processed

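RNA from C3A cells was sequenced, and the authors deposited FPKM values per gene as 6 files, split by exposure. HISAT2 2.0.5, featureCounts 1.5.0-p3 and the build GRCh38 (hg38) are named in the submitters' processing notes; the strand setting is not given in the sources used here. Tables were joined on gene identifiers. Genes at FPKM of at least 1 in 3 of the 6 libraries with 2,4-D or glyphosate were tested, and 3 of them, missing from another table, were taken as 0 there.

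Differences were computed with limma 3.58.1 (R 4.3.3, with data.table at version 1.17.8) on log2(FPKM + 1), with a mean for each of the 5 exposed groups over 15 libraries, an intensity trend and Benjamini-Hochberg adjustment over all 12114 genes. The pooled spread of 15 libraries was used because 3 a group give few degrees of freedom. Multiplying FPKM by gene length gave whole reads within 0.1 of a read for 100% of values, and limma voom was run on these reads as an alternative. Total depth was 15.2 to 24.4 M reads, and p-values cover the spread between libraries. The scripts were tested on simulated data.

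The members and lists were chosen with earlier results of these data known. Genes named by rule were the 12 protein-coding genes in each direction with the largest called, non-overlapping differences, or, where fewer qualified, those of smallest p up to 6 in each direction, with up to 3 called members of each list, and 12 exposure-related genes always given. No gene was called, so 6 in each direction were taken by p, of which 11 genes are given and the other is not reported here. Alternatives were TPM, median-of-ratios scaling, a pseudocount of 0.1, testing unfiltered genes, other sets of libraries, a replicate block and leaving out each replicate. The deposited tables held 0 columns of other samples.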

Additional observations from a re-analysis of the deposited data

How the results depend on the processing

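The absence of calls between 2,4-D and glyphosate held with a pseudocount of 0.1, median-of-ratios scaling, TPM, the 6 libraries alone, all 21 libraries, and each replicate left out in turn. Without a filter 2 genes were called, AC002563.1 and MIR3138. Leaving out AMPA+2,4-D replicates 1 and 3, which changes the pooled spread, gave 2 calls, RPS28 and MIF-AS1, with 1 of them at 2-fold or more. Voom gave 14 calls (1 at 2-fold) over the 15 libraries and, chosen after seeing the data, 116 calls (4 at 2-fold) over the 6 alone. For AMPA+2,4-D against AMPA, 974 genes were called, and 569 without a filter, 1591 by voom, 391 with all 21 libraries, 3 with those 6 alone and 2 without AMPA+2,4-D replicates 1 and 3. Leaving out 1 replicate gave 257 to 1680, the lowest without AMPA+2,4-D replicate 1 and the highest without its replicate 2. The cause was not tested.

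With 1 replicate left out, the difference of CYP2B6 ran from -0.010 to 0.051 and was below 0 without 2,4-D replicate 1 (-0.0098), 2,4-D replicate 3 (-0.0059) or glyphosate replicate 1 (-0.010). That of CPT1A ran from -0.016 to 0.023 and was below 0 without 2,4-D replicate 3 (-0.0023) or glyphosate replicate 1 (-0.016). That of HSPA6 ran from -0.14 to 0.15 and was below 0 without 2,4-D replicate 2 (-0.14) or glyphosate replicate 1 (-0.040). Over all lists and settings, 535 medians moved by less than the spread between replicates and 5 by more. With the replicate block 0 genes were called between 2,4-D and glyphosate and 914 between AMPA+2,4-D and AMPA. Deviations of same-numbered libraries correlated at 0.041, 0.069 and 0.054, each library most with its own number, a hint from the data only, and the samples share only a number.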
